A study of Mus musculus with 9 samples.

Results

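The comparison asked which genes differed in the lung macrophages of mice 72 h after a single exposure to ozone from those of mice that had breathed air. It was made over 15713 genes that passed a filter on low counts, of 54281 in the deposited table, in 6 of the 9 libraries of the study, 3 from air and 3 from 72 h. All mice are described as female, wild type and 12 weeks old, with no strain given beyond the supplier, and breathed air or 0.8 ppm ozone for 3 h in a whole-body chamber. The remaining 3 libraries, from mice killed 24 h after ozone, entered the low-count filter, the scaling and the estimate of spread. The design gives n = 3 for each group and mentions no pooling of mice, so p-values measure the spread between these samples. Cells were washed out of the air spaces by lavage while the lung was massaged and the red cells were lysed. The protocols name no sorting step, so RNA of other cells in the lavage was measured with that of the macrophages. The time between exposure and collection of the air mice is not given.

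Alveolar macrophages live in the air spaces, keep themselves by slow division, take up inhaled particles and dying cells, and clear surfactant lipid. For this they hold an unusually active lipid metabolism and a resident gene programme that includes Siglecf, Ear1 and Krt79. Ozone reacts with the fluid and membranes at the lung surface, where flat alveolar type 1 cells, which cover most of the gas exchange area, and cuboidal type 2 cells, which make surfactant and renew the type 1 cells, rest on a basement membrane of type IV collagen and laminin.

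Levels are given in CPM, counts per 1000000 after scaling of each library, for replicates 1, 2 and 3 in that order; they are not corrected for gene length and are compared only within a gene. Totals were 47095543 to 60248305 counts. All 20 markers of resident alveolar macrophages were measured in every library compared, and summed to 44072 to 46642 CPM in air and 34176 to 40810 CPM at 72 h. Replicate 1 at 72 h stood apart. Its 16 B cell markers summed to 1250 CPM, against 197 and 201 CPM in replicates 2 and 3 and 158 to 180 CPM in air. Cd22 alone made up nearly all of the sums in those 5 libraries, at 194 and 196 CPM in replicates 2 and 3 and 169, 176 and 156 CPM in air. In replicate 1 it was 216 CPM. Its 15 markers of serous cavity macrophages summed to 929 CPM, against 5.79 to 9.37 CPM in the other 5. Its 11 erythroid markers summed to 2550 CPM, against 25.0 to 97.1 CPM. The share of counts from the mitochondrial genome was 6.18% in it and 2.71% to 3.07% in the other 5. Results below are therefore given with and without it. Air replicate 2 had 2.42 CPM of Xist, the RNA that coats the inactive X chromosome of females, against 957 to 1480 CPM in the other 5 libraries. This goes against the female sex given for the mice, and the library was kept in its labelled group. In this total RNA of a mixed pellet, fewer cells of a type and less RNA per cell cannot be told apart.

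At an adjusted p under 0.05 by edgeR's quasi-likelihood test, the rule for a call used throughout, 860 genes differed at 72 h, 5.47% of those tested. Of these, 268 (1.71%) were higher and 592 (3.77%) were lower, and in all 860 the levels of the 3 mice of one group lay wholly above those of the other. Calls are picked for such differences, so the separation adds no support to them. Genes without a call, such as Krt19 and Cd74, separated too, and the share over all genes tested was not counted. At an unadjusted p under 0.05 there were 3977. The directions had different shapes. The genes called higher were mostly scarce, with a median of 2.86 CPM at 72 h, against 0.707 CPM in air. Their median log2 fold change was 1.60, and 176 of them were at least 2-fold higher. Those called lower were moderately abundant and moved little: the median went from 49.7 to 40.5 CPM, the median log2 fold change was -0.33, and 563 of the 592 differed by under 1.5-fold. Scaling shifted the balance. With DESeq2 size factors 224 were higher and 282 lower, and with upper quartile scaling 192 were higher and 107 lower.

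Without 72 h replicate 1 the test called 59 genes (0.375%), 50 higher and 9 lower, of which 57 were among the 860. All 860 kept the sign of their change, which could hardly have been otherwise, since their groups did not overlap. At an unadjusted p under 0.05 there were 3099. Below, a gene called with all libraries lost its call without replicate 1 unless it is said to keep it. Other libraries mattered as much: 35 genes were called without air replicate 2, the library with low Xist, 31 without air replicate 3, 31 without 72 h replicate 2 and 54 without 72 h replicate 3, against 204 without air replicate 1. With 72 h replicate 1 and 24 h replicate 2, which also carried lymphocyte and serous cavity transcripts (B cell markers 2014 CPM, serous cavity markers 714 CPM), both left out, 1126 genes (7.17%) were called, 701 higher and 425 lower, of which 570 were among the 860. A core of 24 genes was called with all libraries and in each of the 9 fits that left out 1 library, 0.153% of those tested, and 22 of these were higher at 72 h.

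**Figure D1:**
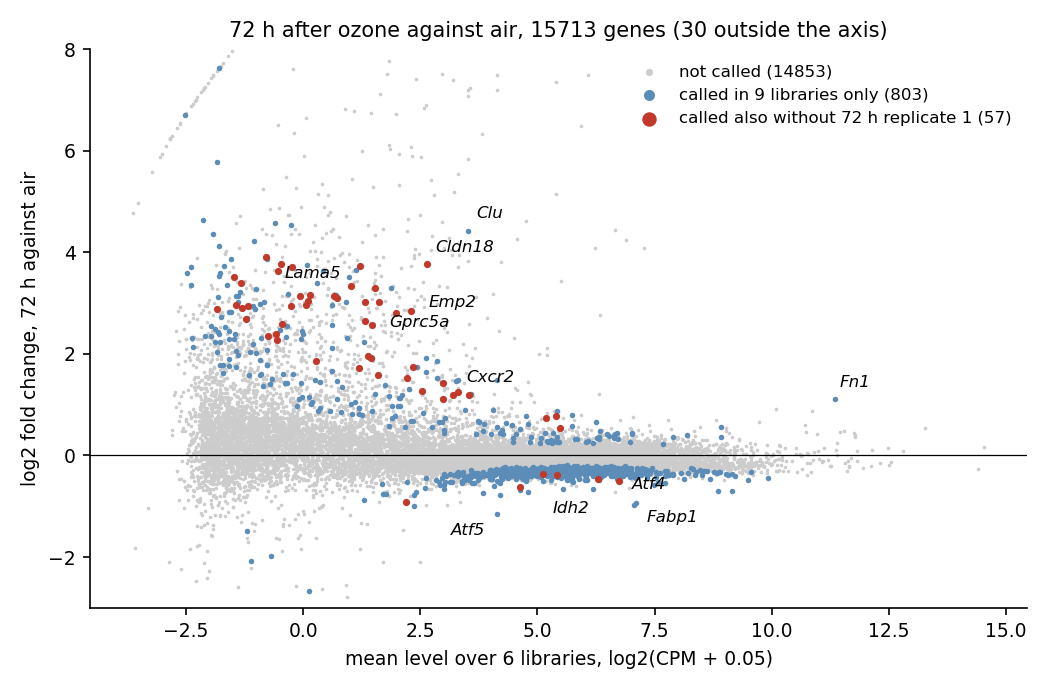
Each point is 1 of 15713 genes, with its mean level over the 6 libraries of air and 72 h (log2 of CPM + 0.05) on the horizontal axis and its log2 fold change at 72 h against air on the vertical axis. The 803 genes in blue were called with all libraries only and the 57 in red also without 72 h replicate 1: the calls above 0 lie mostly at low levels and the calls below 0 form a thin band at moderate levels, while 30 genes lie outside the axis.

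Several genes of the alveolar type 1 cell and of lung epithelium more widely rose from traces in air to clearly measurable levels at 72 h. Of 20 genes listed for type 1 cells, 8 were called higher and 0 lower, against 1.71% of all genes called higher. Without replicate 1 it was 5 higher, against 0.318%, and without both libraries 11, against 4.46%. The median log2 fold change of the list was 1.08, and 1.04 without replicate 1, beside a median of -0.01 over all genes tested. Their summed level was 2004 to 2544 CPM at 72 h, against 1668 to 2410 CPM in air, carried mostly by Ahnak, and did not separate the groups.

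Cldn18, the claudin of alveolar tight junctions (GRCm38 chromosome 9, 99689461 to 99717267), was 0.571, 0.981 and 0.965 CPM in air, compared with 7.76, 12.3 and 14.4 CPM at 72 h (log2 fold change 3.77, SE 0.36, adjusted p = 0.00421). Emp2, a membrane protein enriched in type 1 cells, was 1.18, 1.25 and 1.15 CPM in the air mice and 6.19, 9.38 and 10.3 CPM at 72 h (log2 fold change 2.85, SE 0.22, adjusted p = 0.00243). Gprc5a, an orphan receptor of lung epithelium, was 0.591, 0.71 and 0.682 CPM in air, compared with 4.2, 5.69 and 6.34 CPM at 72 h (log2 fold change 3.03, SE 0.21, adjusted p = 0.00173). In all 3 genes the lowest mouse at 72 h was at least 4 times above the highest in air, and replicate 1, the library with lymphocyte transcripts, was the lowest of its group. Clic5, a chloride channel family member that binds the cytoskeleton, was 0.276, 0.338 and 0.333 CPM in the air mice and 2.99, 4.27 and 5.36 CPM at 72 h (log2 fold change 3.72, SE 0.29, adjusted p = 0.00243). These 4 genes were called in every fit that left out 1 library. The log2 fold changes without replicate 1 were 3.99, 3.04, 3.18 and 3.92. Ager, the receptor RAGE that marks type 1 cells, was 0.847, 1.4 and 1.11 CPM in air, compared with 3.46, 4.47 and 4.79 CPM at 72 h (log2 fold change 1.92, SE 0.23, adjusted p = 0.00952), and kept its call without replicate 1. Aqp5, their water channel, was 0.217, 0.677 and 0.383 CPM in the air mice and 2.35, 2.26 and 3.04 CPM at 72 h (log2 fold change 2.57, SE 0.38, adjusted p = 0.0217).

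Not every type 1 gene was called. Hopx, a homeodomain factor of these cells, was 1.99, 1.05 and 3.04 CPM in air, compared with 6.51, 3.16 and 3.73 CPM at 72 h, and Pdpn, the membrane glycoprotein podoplanin, was 11.7, 7.61 and 9.4 CPM in the air mice and 9.74, 17.6 and 16.9 CPM at 72 h. Neither was called by edgeR. The groups did not overlap for Hopx (log2 fold change 1.14, adjusted p = 0.247) and overlapped for Pdpn. Ahnak, a large scaffold protein made by many cells, was 1976, 1927 and 1303 CPM in air, compared with 1627, 2030.3 and 1627 CPM at 72 h, and Cav1, the coat protein of caveolae, was 83.7, 95.6 and 66.8 CPM in the air mice and 47.5, 90.4 and 81.5 CPM at 72 h. Both were well expressed in air already, their groups overlapped, and neither was called.

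**Figure D2:**
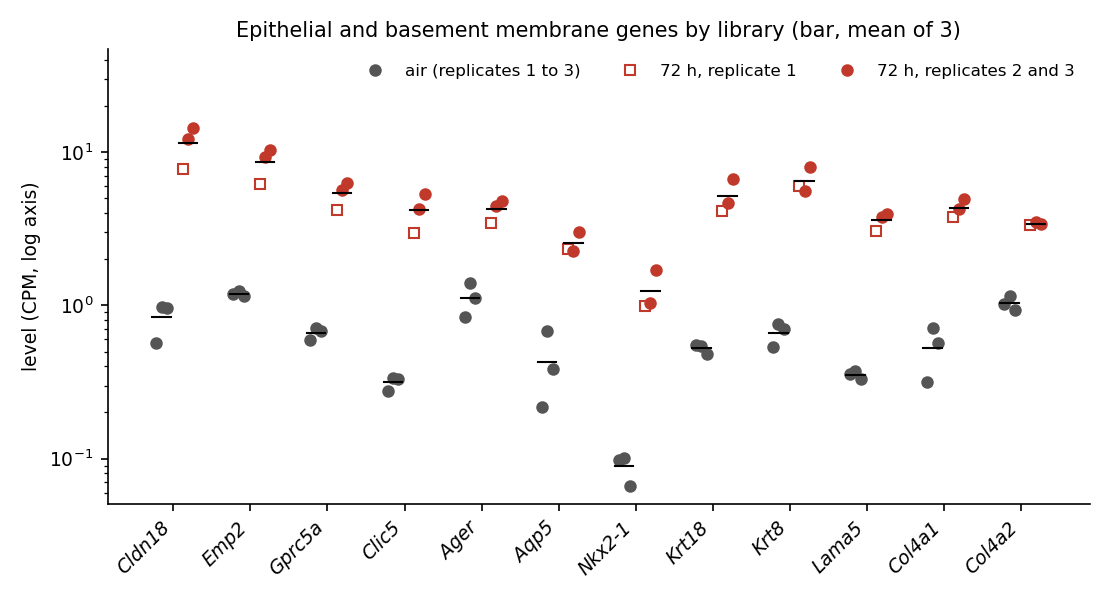
Levels of 12 genes of lung epithelium and basement membrane in the 3 air libraries (grey) and the 3 libraries at 72 h (red, replicate 1 as an open square), in CPM on a log axis, with bars for the group means. Every library at 72 h lies above every air library for each of these genes, and replicate 1 is the highest of its group for none of them.

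Some wider epithelial genes rose too. Of 19 tested keratins and genes of injured, transitional epithelium, 8 were called higher and 0 lower, against 1.71% of all genes called higher, and 5 without replicate 1, against 0.318%. Cldn18 is on both lists. The summed level ran the other way, from 2682 to 3050 CPM in air to 2155 to 2657 CPM at 72 h. Krt18 was 0.551, 0.541 and 0.482 CPM in air, compared with 4.16, 4.69 and 6.67 CPM at 72 h (log2 fold change 3.30, SE 0.39, adjusted p = 0.00952), and kept its call without replicate 1. Its partner in simple epithelial filaments Krt8 was 0.532, 0.761 and 0.699 CPM in the air mice and 6.03, 5.58 and 8.03 CPM at 72 h (log2 fold change 3.30, SE 0.51, adjusted p = 0.0236). Replicate 2 at 24 h also held 2.71 CPM of Krt8, while the other 2 libraries at 24 h held 0.721 and 0.822 CPM. Krt7 was 0.492, 0.829 and 0.699 CPM in air, compared with 3.96, 4.03 and 4.77 CPM at 72 h (log2 fold change 2.65, SE 0.24, adjusted p = 0.00384), and was called in every fit that left out 1 library. Clu, a secreted chaperone, was 0.689, 1.25 and 1.08 CPM in the air mice and 20.1, 19.5 and 25.6 CPM at 72 h (log2 fold change 4.43, SE 0.92, adjusted p = 0.044). Without replicate 1 its log2 fold change was 4.48, with no call. Replicate 2 at 24 h held 13.6 CPM of Clu, while the other 2 libraries at 24 h held 2.30 and 1.33 CPM. Clu was called by edgeR in the fit to the 6 libraries compared (adjusted p = 0.00114) and in the fit without both libraries (adjusted p = 0.00051). Sprr1a, a small proline-rich protein of stressed epithelium, was 0.0985, 0.0507 and 0.133 CPM in air, compared with 0.637, 1.36 and 1.57 CPM at 72 h (log2 fold change 3.63, SE 0.49, adjusted p = 0.0165). Itgb6, the epithelial integrin chain that activates TGF-beta, was 0.0591, 0.0846 and 0.0665 CPM in the air mice and 0.319, 0.589 and 0.795 CPM at 72 h (log2 fold change 2.97, SE 0.48, adjusted p = 0.0236). Both kept their call without replicate 1. Krt19, a keratin measured at high levels in air too, was 454, 609 and 467 CPM in air, compared with 313, 432 and 420.4 CPM at 72 h, with the groups apart in the opposite direction and no call. The epithelial genes Cldn7, Epcam and Cdh1 were not called either, at log2 fold changes of 0.58, -0.10 and -0.06. Epcam and Cdh1 averaged 104 and 106 CPM in air, and their groups overlapped.

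Of 17 type 2 genes, 4 were called higher, against 1.71% of all genes, and 1 without replicate 1, against 0.318%. Nkx2-1, the transcription factor that specifies lung epithelium, was 0.0985, 0.101 and 0.0665 CPM in the air mice and 0.995, 1.03 and 1.71 CPM at 72 h (log2 fold change 3.78, SE 0.44, adjusted p = 0.00936), and kept its call without replicate 1. The surfactant genes differed among themselves: Sftpd was 0.65, 1.27 and 0.998 CPM in air, compared with 2.09, 2.61 and 2.75 CPM at 72 h (log2 fold change 1.35, SE 0.27, adjusted p = 0.0326), while Sftpc, the most specific of them, was 3.9, 5.62 and 7.42 CPM in the air mice and 6.61, 9.88 and 9.34 CPM at 72 h and was not called. Of 10 tested genes of airway epithelium 0 were called by edgeR, with 1 lower at an unadjusted p under 0.05, 1 by DESeq2 and 0 by voom. The summed level of 16 airway genes was 193 to 221 CPM at 72 h, against 250 to 277 CPM in air. The 18 endothelial and fibroblast markers summed to 141 to 149 CPM in air. At 72 h they summed to 183 to 202 CPM. Vwf, von Willebrand factor, made up 140.4, 137 and 144 CPM of the first and 168, 179 and 172 CPM of the second. Of these, 11 were tested and 0 called by edgeR with all libraries, with 4 higher at an unadjusted p under 0.05 and 0 by DESeq2 or voom. Without both libraries edgeR called 5 higher, against 4.46% of all genes. The part of these other cell types in the changes was not tested.

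A further 3 genes called in every fit that left out 1 library are given here. They belong to no list and were chosen after their values were seen. Lama5, a laminin chain of basement membranes (chromosome 2, 180176373 to 180225859), had the smallest p of all genes and was 0.354, 0.372 and 0.333 CPM in air, compared with 3.07, 3.79 and 3.93 CPM at 72 h (log2 fold change 3.34, SE 0.18, adjusted p = 0.000544). Dsp, the desmosomal plaque protein, was 0.236, 0.22 and 0.20 CPM in the air mice and 1.27, 1.58 and 2.59 CPM at 72 h (log2 fold change 3.04, SE 0.30, adjusted p = 0.0048). Mal2, which sorts proteins to the apical membrane, was 0.335, 0.271 and 0.316 CPM in air, compared with 2.11, 2.59 and 3.51 CPM at 72 h (log2 fold change 3.15, SE 0.25, adjusted p = 0.00243). All 3 were rare in air, and the 3 mice at 72 h lay at least 4 times above the highest air mouse for each.

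Among matrix genes, the basement membrane collagen chains Col4a1 and Col4a2 moved most steadily. Of 29 tested genes for matrix and its proteases, 7 were called higher and 0 lower, against 1.71% of all genes called higher. It was 2 without replicate 1, against 0.318%, and 12 without both libraries, against 4.46%. The median log2 fold change was 0.80, and 0.67 without replicate 1. Col4a1 was 0.315, 0.71 and 0.566 CPM in the air mice and 3.76, 4.29 and 4.99 CPM at 72 h (log2 fold change 3.03, SE 0.36, adjusted p = 0.00952), and Col4a2 was 1.02, 1.15 and 0.932 CPM in air, compared with 3.36, 3.5 and 3.4 CPM at 72 h (log2 fold change 1.72, SE 0.18, adjusted p = 0.00532). The 2 genes encode the chains of the common type IV collagen molecule. They lie head to head on chromosome 8, with RefSeq start sites 21 bases apart (GRCm38.p6), and both kept their call without replicate 1. Other type IV chains were less steady. Col4a3 and Col4a5 were called with all libraries, at log2 fold changes of 1.97 and 4.23 and means of 0.133 and 0.042 CPM in air. Neither was called by edgeR without replicate 1 (adjusted p = 0.091 and 0.0759).

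Fn1, fibronectin, already abundant in air, was 1899.7, 1348 and 1717 CPM in the air mice and 4405, 2986 and 3323 CPM at 72 h (log2 fold change 1.11, SE 0.20, adjusted p = 0.028). Replicate 1 was the highest of the 3, and without it the log2 fold change was 0.93 and the call was lost. Sparc, a matrix-binding glycoprotein, was 0.374, 0.304 and 0.266 CPM in air, compared with 4.1, 3.48 and 4.34 CPM at 72 h (log2 fold change 3.65, SE 0.80, adjusted p = 0.0438). Tnc, tenascin C, a matrix protein of wound repair, was 0, 0.0507 and 0.133 CPM in the air mice and 0.936, 1.29 and 2.32 CPM at 72 h (log2 fold change 4.53, SE 0.92, adjusted p = 0.0338). Mmp14, a membrane-bound protease that cleaves collagen, was 2.97, 2.23 and 3.03 CPM in air, compared with 4.36, 7.38 and 8.58 CPM at 72 h (log2 fold change 1.30, SE 0.30, adjusted p = 0.0462). Mmp8, a collagenase, was 41.4, 33.1 and 41.9 CPM in the air mice and 60.1, 65.3 and 77 CPM at 72 h (log2 fold change 0.80, SE 0.16, adjusted p = 0.0346). Col3a1, a fibrillar collagen of fibroblasts, was 0, 0.0338 and 0.0166 CPM in air, compared with 2.87, 1.49 and 1.57 CPM at 72 h, and was not called by edgeR (log2 fold change 6.64, adjusted p = 0.134). Its values were near 0 in air. It was called in the fit to the 6 libraries compared (adjusted p = 0.00445) and in the fit without both libraries (adjusted p = 0.00049). At 24 h it was 0.040, 5.74 and 0.0211 CPM, high in replicate 2 alone. Spp1, osteopontin, was 314, 292 and 302 CPM in the air mice and 299.8, 360.1 and 413 CPM at 72 h and was not called.

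Among growth factors and repair ligands, 2 of 22 were called higher, against 1.71% of all genes, and both were scarce. Hbegf, a ligand of the EGF receptor, was 0.0394, 0.0507 and 0.133 CPM in air, compared with 0.458, 0.386 and 0.367 CPM at 72 h (log2 fold change 2.38, SE 0.55, adjusted p = 0.0454). Vegfa, the endothelial growth factor that type 1 cells also make, was 0.63, 0.507 and 0.599 CPM in the air mice and 1.21, 1.23 and 1.41 CPM at 72 h (log2 fold change 1.15, SE 0.28, adjusted p = 0.0499). Neither was called without replicate 1.

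Some dendritic cell genes were higher as well. Of 20 listed, 5 were called higher and 0 lower, against 1.71% of all genes called higher. It was 1 higher without replicate 1, against 0.318%, and 10 without both libraries, against 4.46%. Itgae, the integrin CD103 of migratory lung dendritic cells, was 8.11, 5.67 and 7.24 CPM in air, compared with 13.9, 18.8 and 15.5 CPM at 72 h (log2 fold change 1.20, SE 0.18, adjusted p = 0.0226), and kept its call without replicate 1. Flt3, the receptor for their growth factor, was 3.72, 3.25 and 4.16 CPM in the air mice and 9.24, 11.7 and 10.9 CPM at 72 h (log2 fold change 1.52, SE 0.30, adjusted p = 0.033). Zbtb46, a transcription factor restricted to conventional dendritic cells in the myeloid lineage, was 2.72, 2.28 and 3.38 CPM in air, compared with 4.6, 5.81 and 6.16 CPM at 72 h (log2 fold change 0.98, SE 0.19, adjusted p = 0.0301). Fscn1, which bundles actin in mature dendritic cells, was 7.33, 8.49 and 12.1 CPM in the air mice and 21.7, 27.9 and 28.3 CPM at 72 h (log2 fold change 1.48, SE 0.30, adjusted p = 0.0355), and Cacnb3 was 3.98, 5.07 and 6.39 CPM in air, compared with 11.6, 16.6 and 15.3 CPM at 72 h (log2 fold change 1.49, SE 0.26, adjusted p = 0.028). In all 5 genes replicate 1 was the lowest of the 3 mice at 72 h, and the median log2 fold change of the list was 0.74 with replicate 1 and 0.80 without it. The summed level of the list did not separate the groups, at 3058 to 3238 CPM in air and 3005 to 3388 CPM at 72 h. Of 15 tested genes of MHC class II presentation, 0 were called by edgeR. At an unadjusted p under 0.05, and also by DESeq2, 2 were higher and 1 was lower, and by voom 1 was higher. Cd74, the invariant chain, was 1193, 1548 and 1579 CPM in the air mice and 2058, 1801 and 2073 CPM at 72 h.

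Of 14 tested neutrophil genes 2 were called higher, Cxcr2 and Mmp8, the collagenase given above, and of 15 monocyte genes 2, Fn1 and Ace, against 1.71% of all genes. Without replicate 1 edgeR called 1 and 0 of them, against 0.318% (of the monocyte genes 2 were higher at an unadjusted p under 0.05, 2 by DESeq2 and 1 by voom), and without both libraries 4 and 4, against 4.46%. Cxcr2, the receptor through which neutrophils follow CXC chemokines (chromosome 1, 74153989 to 74161246), was 6.28, 5.43 and 5.82 CPM in air, compared with 15, 11.8 and 14.8 CPM at 72 h (log2 fold change 1.25, SE 0.12, adjusted p = 0.00421) and was called in every fit that left out 1 library. Among other neutrophil genes, S100a9 was 0.0788, 0.0677 and 0.333 CPM in the air mice and 26.7, 1.16 and 1.33 CPM at 72 h, and Mpo, the peroxidase of neutrophil granules, was 0, 0 and 0 CPM in air, compared with 0.956, 0 and 0 CPM at 72 h. The 17 neutrophil markers summed to 170 to 180 CPM in air, 203 and 230 CPM in replicates 2 and 3 at 72 h and 302 CPM in replicate 1. Ace, the angiotensin-converting enzyme, was 47.9, 37.7 and 41.9 CPM in the air mice and 61.2, 61.7 and 68 CPM at 72 h (log2 fold change 0.58, SE 0.09, adjusted p = 0.0226). Ccr2, the receptor that brings monocytes into tissue, was 22.6, 15.4 and 20.7 CPM in air, compared with 55, 33 and 34.5 CPM at 72 h and was not called.

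Of 29 chemokine and receptor genes, 3 were called higher, Cxcr2, Cxcl16 and Cxcl15, and 0 lower, against 1.71% of all genes called higher. Cxcl16, a membrane-bound chemokine that is also a scavenger receptor, was 11.9, 9.57 and 13.1 CPM in the air mice and 17.1, 23.4 and 24.3 CPM at 72 h (log2 fold change 0.91, SE 0.17, adjusted p = 0.0315). Cxcl2, a neutrophil attractant, was 5.1, 3.43 and 3.68 CPM in air, compared with 2.27, 2.91 and 2.28 CPM at 72 h, lower in each mouse at 72 h but not called. Of 24 cytokine and feedback genes, Rel and Ptgs2 were called. Rel, a subunit of NF-kB, was 71.1, 69.9 and 66.6 CPM in the air mice and 92, 88 and 88.5 CPM at 72 h (log2 fold change 0.37, SE 0.06, adjusted p = 0.0238). Ptgs2, the inducible cyclooxygenase, rose from very low levels, 0.0985, 0.118 and 0.0832 CPM in air, compared with 0.498, 0.791 and 0.714 CPM at 72 h (log2 fold change 2.71, SE 0.55, adjusted p = 0.0331). Il1b, the inflammasome cytokine, was 10.3, 7.85 and 17.6 CPM in the air mice and 10.4, 21.4 and 19.3 CPM at 72 h. Interferon-stimulated genes gave 0 calls of 34 by edgeR, 1 higher and 2 lower at an unadjusted p under 0.05, 1 lower by DESeq2 and 0 by voom. Their median log2 fold change was 0.10 with replicate 1 and -0.02 without it. Genes of alternative activation gave 0 of 20 by edgeR, 2 higher at an unadjusted p under 0.05, 2 higher by DESeq2 and 0 by voom. Pattern recognition receptors gave 0 of 24 by edgeR, 2 lower at an unadjusted p under 0.05 and 0 by DESeq2 or voom.

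Another 6 genes kept a call without replicate 1. Gnb4, a G protein beta subunit, was 2.19, 2.33 and 2.48 CPM in air, compared with 6.27, 8.59 and 8.48 CPM at 72 h (log2 fold change 1.74, SE 0.23, adjusted p = 0.0145). Npr1, the receptor for atrial natriuretic peptide, was 3.09, 3.03 and 3.96 CPM in the air mice and 6.37, 9.29 and 8.81 CPM at 72 h (log2 fold change 1.28, SE 0.19, adjusted p = 0.0226). Zmynd15, a zinc finger repressor studied in the testis, was 2.26, 2.4 and 2.51 CPM in air, compared with 5.71, 7.54 and 7.32 CPM at 72 h (log2 fold change 1.52, SE 0.15, adjusted p = 0.0048). Mmp25, a membrane-anchored protease of leukocytes, was 3.27, 4.04 and 5.39 CPM in the air mice and 8.0, 13.2 and 13.1 CPM at 72 h (log2 fold change 1.43, SE 0.26, adjusted p = 0.0289). Ndnf, a secreted neuron-derived neurotrophic factor, was 0.748, 0.981 and 1.18 CPM in air, compared with 5.04, 7.53 and 7.93 CPM at 72 h (log2 fold change 2.81, SE 0.39, adjusted p = 0.0186). Colec12, a scavenger receptor with a collagen-like domain, was 31, 25.6 and 25.7 CPM in the air mice and 42.7, 46.4 and 47.4 CPM at 72 h (log2 fold change 0.73, SE 0.09, adjusted p = 0.00952). In these 6 genes replicate 1 was the lowest of the mice at 72 h. Mfge8, the bridge between dying cells and phagocytes, is on the list of scavenger and efferocytosis receptors with Colec12. It was 14.4, 11.7 and 16.5 CPM in air, compared with 20.5, 19.7 and 22.4 CPM at 72 h (log2 fold change 0.56, SE 0.12, adjusted p = 0.0364), and was not called without replicate 1.

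The genes that fell began with the ATF4 pathway. ATF4 is the transcription factor made when amino acids run short or the endoplasmic reticulum is stressed, and it drives genes for amino acid synthesis, import and tRNA charging. It pairs with C/EBP factors on composite sites close to TGATGNAA. Of 27 tested genes of the pathway, 6 were called lower and 0 higher, against 3.77% of all genes called lower. It was 2 without replicate 1, against 0.0573%, and 6 without both libraries, against 2.7%. The median log2 fold change was -0.24, and -0.28 without replicate 1.

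The 30-base stretches below show the sites found by a search of the RefSeq promoter windows (GRCm38.p6, 250 bases before to 50 after each start) for TGATGNAA on either strand, set in capitals, so that target genes that fell can be set beside targets that were not called. Asns and Trib3 were called lower, and Atf3, Chac1 and Nupr1 were not. Chac1 was scarce, at 0.492, 0.71 and 0.499 CPM in air and 0.518, 0.331 and 0.367 CPM at 72 h. Its log2 fold change was -0.48 (SE 0.36). A missing call at such a level does not mean that the gene did not fall.
Asns (minus strand, chr6:7693214-7693243, 23 bases before the RefSeq start and within the first exon of GENCODE M21): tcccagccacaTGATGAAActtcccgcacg
Trib3 (minus strand, chr2:152344028-152344057, from base 15 of the transcript): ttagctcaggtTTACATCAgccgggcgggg
Atf3 (minus strand, chr1:191183425-191183454, 110 bases before the start): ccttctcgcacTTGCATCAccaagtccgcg
Chac1 (plus strand, chr2:119351038-119351067, 193 bases before the start): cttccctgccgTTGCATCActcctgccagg
Nupr1 (minus strand, chr7:126625562-126625591, 110 bases before the start): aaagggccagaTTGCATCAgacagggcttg
Of 26 genes of the list with a window, 9 held a match, and of all 32851 windows 3.97% did. The sites of 5 of these 9 genes are shown. A match is only a description of the letters. Genes with the site were found among those that fell and among those without a call. The windows of Atf4, Atf5 and Mthfd2, which were also called lower, held no match.

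Atf4 itself (chromosome 15, 80255184 to 80257541) was 120.0, 125 and 131 CPM in the air mice and 89.4, 87.6 and 89.7 CPM at 72 h (log2 fold change -0.50, SE 0.05, adjusted p = 0.0048). The 3 mice at 72 h lay within a narrow range below all 3 air mice, and the gene was called in every fit that left out 1 library. Mthfd2, the mitochondrial folate enzyme that ATF4 induces, was 27.5, 29.5 and 32.8 CPM in air, compared with 20.4, 18.9 and 19.5 CPM at 72 h (log2 fold change -0.61, SE 0.08, adjusted p = 0.0117) and also kept its call without replicate 1. Atf5, a related factor of the mitochondrial stress response, was 18.2, 26.9 and 27.6 CPM in the air mice and 11, 11.4 and 10.1 CPM at 72 h (log2 fold change -1.16, SE 0.18, adjusted p = 0.0234). Asns, asparagine synthetase, was 5.59, 7.49 and 7.27 CPM in air, compared with 3.46, 3.35 and 3.43 CPM at 72 h (log2 fold change -0.99, SE 0.16, adjusted p = 0.0238). Trib3, a pseudokinase that feeds back on the pathway, was 2.46, 3.76 and 3.13 CPM in the air mice and 1.87, 1.6 and 1.61 CPM at 72 h (log2 fold change -0.88, SE 0.19, adjusted p = 0.0364). Eif4ebp1, which restrains cap-dependent translation, was 31.7, 36.4 and 36.2 CPM in air, compared with 25.6, 27.7 and 28.1 CPM at 72 h (log2 fold change -0.36, SE 0.07, adjusted p = 0.0331).

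Other targets were not called: the serine enzyme Phgdh was 199.6, 223 and 246 CPM in the air mice and 174, 212 and 177 CPM at 72 h. Psat1, the next enzyme of that route, was 22, 24.8 and 27.2 CPM in air, compared with 21.9, 20.1 and 21.2 CPM at 72 h. Ddit3, the factor CHOP, was 10.8, 10.8 and 13.4 CPM in the air mice and 11.2, 9.51 and 12.1 CPM at 72 h, with overlapping groups. Of 20 cytosolic tRNA synthetases, Sars and Yars were called lower, against 3.77% of all genes called lower. Without replicate 1 edgeR called 0 of the 20 (10 lower at an unadjusted p under 0.05, 2 by DESeq2, 0 by voom). With the trend on gene length described below removed edgeR also called 0, and the median log2 fold change went from -0.19 to -0.11. Yars was 47.4, 47.9 and 52.3 CPM in air, compared with 36.8, 36.6 and 36.3 CPM at 72 h (log2 fold change -0.43, SE 0.09, adjusted p = 0.0344).

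Genes of the resident macrophage programme fell in part. Of 20 markers, 4 were called lower and 0 higher, against 3.77% of all genes called lower. Without replicate 1 edgeR called 0. At an unadjusted p under 0.05 there were 7 lower and 2 higher, by DESeq2 5 lower and 1 higher, and by voom 1 lower. Without both libraries edgeR called 6 lower, against 2.7%, and 1 higher, against 4.46%. The median log2 fold change of the list was -0.24, -0.15 without replicate 1, and -0.05 with the trend on gene length described below removed, or 0.03 with both libraries also left out. Fabp1, a fatty acid binding protein that alveolar macrophages express unusually for an immune cell, was 158, 216 and 158 CPM in the air mice and 80.5, 94.1 and 96.5 CPM at 72 h (log2 fold change -0.97, SE 0.13, adjusted p = 0.0167). Krt79 was 543, 621 and 553 CPM in air, compared with 309, 356 and 389 CPM at 72 h (log2 fold change -0.70, SE 0.12, adjusted p = 0.0277). Ear1, an eosinophil-associated ribonuclease, was 717, 785 and 611 CPM in the air mice and 350.5, 470.1 and 481 CPM at 72 h (log2 fold change -0.70, SE 0.14, adjusted p = 0.0319). Marco, a scavenger receptor for particles, was 423, 535 and 476 CPM in air, compared with 376, 319 and 345 CPM at 72 h (log2 fold change -0.46, SE 0.10, adjusted p = 0.0365). Replicate 1 was the lowest of the 3 for Fabp1, Krt79 and Ear1 and the highest for Marco. With the length trend removed Krt79 kept its call, at a log2 fold change of -0.63. Fabp1, Ear1 and Marco lost theirs, at -0.64, -0.39 and -0.25. Ear1 has close copies in the same cluster, and how reads were shared among them is uncertain.

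Other markers did not pass the test. Siglecf was 529, 448 and 438 CPM in the air mice and 382, 431 and 461 CPM at 72 h. Chil3, a chitinase-like protein, was 24837, 22245 and 24041 CPM in air, compared with 17886, 21115 and 20390.5 CPM at 72 h. Pparg, the nuclear receptor that maintains these cells, was 212, 227 and 217 CPM in the air mice and 154, 171 and 185 CPM at 72 h, with adjusted p = 0.0508.

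Lipid and glycerol metabolism held 2 of the larger decreases. Acaa1b, a peroxisomal thiolase, was 157, 219.6 and 167 CPM in air, compared with 88.8, 102 and 95.5 CPM at 72 h (log2 fold change -0.93, SE 0.14, adjusted p = 0.0234). Gpd1, cytosolic glycerol-3-phosphate dehydrogenase, was 38.1, 34.3 and 30.8 CPM in the air mice and 20.9, 21.3 and 20.7 CPM at 72 h (log2 fold change -0.72, SE 0.11, adjusted p = 0.0234). With the trend on gene length described below removed, neither Acaa1b nor Gpd1 was called, at log2 fold changes of -0.72 and -0.56. Of 25 genes of fatty acid oxidation, 6 were called lower, against 3.77% of all genes, with 0 by edgeR without replicate 1 (10 at an unadjusted p under 0.05, 6 by DESeq2, 0 by voom). Without both libraries 5 were called lower, against 2.7%. Acadvl, the first enzyme for very long chains, was 112, 116 and 114 CPM in air, compared with 81.8, 89.3 and 92.9 CPM at 72 h (log2 fold change -0.37, SE 0.06, adjusted p = 0.0236). Cholesterol synthesis gave 1 of 24 lower, Ebp at a log2 fold change of -0.22. Fatty acid synthesis gave 0 of 14 by edgeR (3 higher and 1 lower at an unadjusted p under 0.05, 1 higher and 1 lower by DESeq2, 0 by voom). LXR targets gave 0 of 16 (1 lower, 1 lower and 0 by the same counts).

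**Figure D3:**
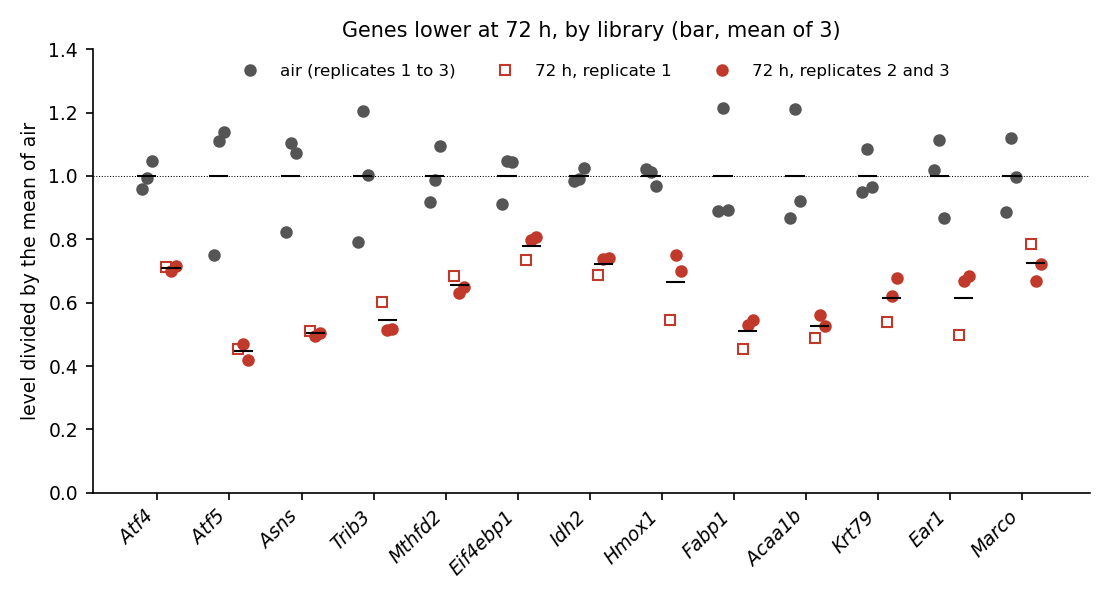
Levels of 13 genes called lower at 72 h, each divided by its mean in air, in the 3 air libraries (grey) and the 3 libraries at 72 h (red, replicate 1 as an open square), with bars for the group means. Every library at 72 h lies below every air library for each gene, with the largest decrease for Atf5 (log2 fold change -1.16) and the smallest for Eif4ebp1 (-0.36).

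Many nuclear-encoded mitochondrial genes were slightly lower at 72 h. Of 74 subunits of oxidative phosphorylation, 19 were called lower and 0 higher, against 3.77% of all genes, and all 74 had a negative log2 fold change, with a median of -0.28. Over all 15713 genes tested, 8009 had a negative log2 fold change. Of 52 mitochondrial ribosomal proteins 15 were called lower, of 24 import and chaperone genes 11, and of 36 proteasome subunits 13, with medians of -0.26, -0.28 and -0.26. Without replicate 1 edgeR called 0 in these 4 lists, with 62, 40, 18 and 27 at an unadjusted p under 0.05, 24, 15, 10 and 12 by DESeq2 and 0 by voom. Their medians without replicate 1 were -0.26, -0.27, -0.29 and -0.24. Without both libraries 6 to 9 members of each were called lower, against 2.7% of all genes.

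Ndufa5, a subunit of complex I, was 20.2, 21.4 and 23.5 CPM in the air mice and 14.3, 14.4 and 15.8 CPM at 72 h (log2 fold change -0.55, SE 0.09, adjusted p = 0.0236). Psmb5, the catalytic subunit of the proteasome that bortezomib blocks, was 75.2, 83 and 91 CPM in air, compared with 62.9, 63 and 63 CPM at 72 h (log2 fold change -0.40, SE 0.07, adjusted p = 0.0239). Mrpl38, a protein of the large mitochondrial ribosomal subunit, was 20.1, 21.5 and 23 CPM in the air mice and 15.8, 16.3 and 16 CPM at 72 h (log2 fold change -0.42, SE 0.06, adjusted p = 0.0226). Phb2, prohibitin 2 of the inner membrane, was 117, 122 and 125 CPM in air, compared with 97.1, 98.4 and 100.3 CPM at 72 h (log2 fold change -0.30, SE 0.05, adjusted p = 0.0275). Each was lower in all 3 mice by about the same share. The respiratory genes that the mitochondrial genome itself encodes did not share the direction: all 13 leaned upward, with a median log2 fold change of 0.49, and 0.06 without replicate 1. Of these, 0 were called by edgeR, 1 was at an unadjusted p under 0.05 and 0 were called by DESeq2 or voom. The list took 59998 CPM in replicate 1, 28768 and 30158 CPM in replicates 2 and 3 and 26734 to 28737 CPM in air. Cytosolic ribosomal proteins, whose many pseudogene copies make counting uncertain, gave 0 calls of 51 by edgeR and by voom, 5 by DESeq2 and 26 at an unadjusted p under 0.05, with a median log2 fold change of -0.25.

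Gene length moved with these decreases. Across 8718 genes averaging at least 10 CPM, the Spearman correlation of exonic length with the log2 fold change was 0.52, and 0.53 without replicate 1, a description across genes of libraries that share their air samples. In the shortest of 5 equal groups by length, up to 2740 bases, the median log2 fold change was -0.22 and 16.9% were called lower. In the longest group, from 8016 bases, it was 0.06, with 0.631% called lower and 1.89% called higher. The pattern was present in each of the 3 libraries at 72 h, with medians of -0.23, -0.23 and -0.19 in the shortest group, whereas the air libraries stood at -0.04, -0.02 and 0.06 and those at 24 h at 0.03, 0.05 and 0.00. Median exonic length was 2602 bases for the genes called lower at this level, 7815 for those called higher and 4790 for all. The lists above are short, with median exonic lengths of 1778 bases for oxidative phosphorylation, 2394 for mitochondrial ribosomal proteins and 2804 for the proteasome.

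**Figure D4:**
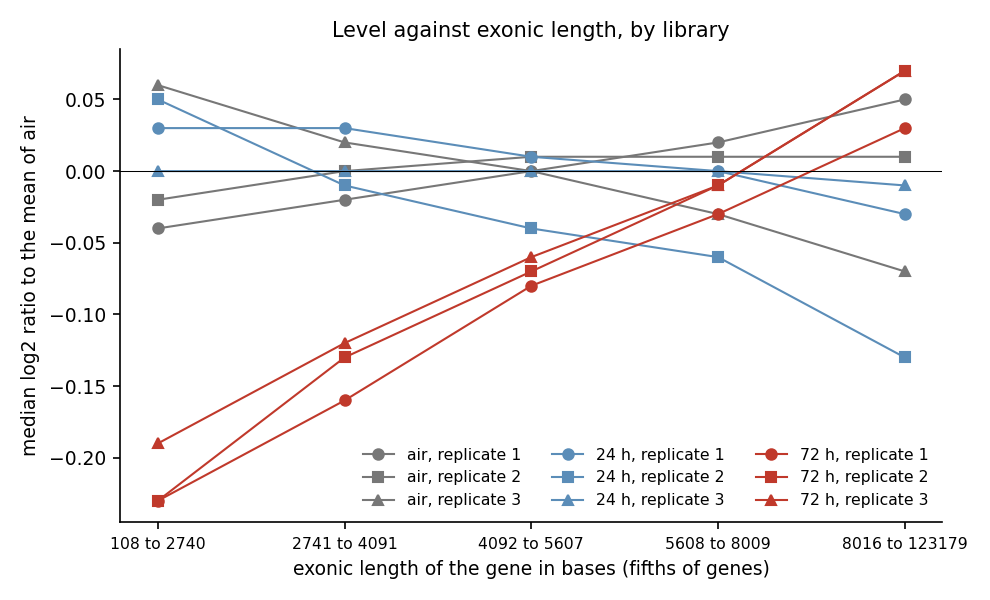
Median log2 ratio of each library to the mean of air (vertical axis) in 5 equal groups of genes by exonic length in bases (horizontal axis), for 8718 genes averaging at least 10 CPM, with 1 line per library. The 3 libraries at 72 h (red) rise from -0.19 or below in the shortest group to 0.03 or above in the longest, and the air (grey) and 24 h (blue) libraries stay between -0.13 and 0.06.

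With the trend on exonic length removed from each library, an alternative added after the values were seen, 171 genes were called (1.09%), 149 higher (0.949%) and 22 lower (0.14%), of which 140 and 20 were among the original calls. Oxidative phosphorylation, mitochondrial ribosomal proteins, mitochondrial import, proteasome and fatty acid oxidation then had 0 genes called by edgeR, with medians of -0.05, -0.10, -0.12, -0.09 and -0.08. The ATF4 pathway kept 3 of its 6 calls, Atf4, Atf5 and Mthfd2, with log2 fold changes of -0.31, -0.94 and -0.48, and had 6 lower with both libraries also left out, against 4.45% of all genes called higher and 0.649% called lower there. Type 1 cell genes kept 6 of 8, keratins and transitional epithelium 7 of 8, matrix 3 of 7 and dendritic cell genes 3 of 5. The sources used here do not state whether all 9 libraries were quantified in 1 run with 1 set of transcripts. What produced the slope on length, and its part in the 72 h differences, was not tested.

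Idh2, the mitochondrial NADP-dependent isocitrate dehydrogenase (chromosome 7, 80094846 to 80115392), was 89.9, 90.6 and 93.9 CPM in the air mice and 62.9, 67.6 and 67.8 CPM at 72 h (log2 fold change -0.47, SE 0.06, adjusted p = 0.00952). It was called without replicate 1, and with the length trend removed had a log2 fold change of -0.29 and was still called. Nfu1, which assembles iron-sulfur clusters in mitochondria, was 46.6, 48.9 and 49.4 CPM in air, compared with 37.1, 36.5 and 37.8 CPM at 72 h (log2 fold change -0.38, SE 0.05, adjusted p = 0.0121), and was also called in both. Rnf5, a ubiquitin ligase of the endoplasmic reticulum, was 38.1, 39.2 and 39.8 CPM in the air mice and 29.1, 30.7 and 30.6 CPM at 72 h (log2 fold change -0.37, SE 0.05, adjusted p = 0.011), and was called without replicate 1 but not with the trend removed. Nutf2, an importer of the nuclear transport GTPase Ran, was 5.77, 6.14 and 5.82 CPM in air, compared with 3.86, 2.65 and 2.83 CPM at 72 h (log2 fold change -0.92, SE 0.16, adjusted p = 0.0278), and kept its call without replicate 1 but not with the trend removed. Its level at 24 h was above air in every mouse, 7.13, 8.64 and 9.21 CPM.

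Some antioxidant and protein folding genes also fell by small amounts. Of 36 NRF2 targets and antioxidant enzymes, 6 were called lower and 0 higher, against 3.77% of all genes called lower, with 0 by edgeR without replicate 1 (14 at an unadjusted p under 0.05, 7 by DESeq2, 1 by voom). With the length trend removed edgeR called 0 of them, and the median went from -0.21 to -0.11. Hmox1, heme oxygenase 1, was 221, 219 and 209 CPM in the air mice and 118, 162 and 152 CPM at 72 h (log2 fold change -0.59, SE 0.12, adjusted p = 0.0331), lowest in replicate 1. Gpx4, which detoxifies lipid peroxides, was 151, 155 and 170.4 CPM in air, compared with 121, 112 and 119 CPM at 72 h (log2 fold change -0.44, SE 0.07, adjusted p = 0.0226). Of 25 endoplasmic reticulum chaperones 3 were called lower. Manf, a secreted stress protein, was 97.2, 83.9 and 96.1 CPM in the air mice and 67.3, 62.2 and 67.7 CPM at 72 h (log2 fold change -0.49, SE 0.07, adjusted p = 0.0186). Of 21 cytosolic heat shock genes 3 were called lower. Fkbp4, a partner of HSP90, was 116, 123 and 134 CPM in air, compared with 84.6, 88.5 and 93.6 CPM at 72 h (log2 fold change -0.49, SE 0.07, adjusted p = 0.0211). With the length trend removed Manf and Fkbp4 kept a call and Hmox1 and Gpx4 did not.

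Cell division genes gave 1 call. Of 27 genes of DNA replication only Pcna, which holds the polymerase on DNA, was called lower, at 232, 248 and 278 CPM in the air mice and 193, 185 and 206 CPM at 72 h (log2 fold change -0.38, SE 0.09, adjusted p = 0.0425). A negative log2 fold change was found in 26 of the 27, against 8009 of all 15713 genes tested. With the length trend removed edgeR called 0 of the 27, and their median log2 fold change went from -0.23 to -0.13. Of 25 genes of G2 and mitosis 0 were called by edgeR, DESeq2 or voom and 1 was at an unadjusted p under 0.05. Mki67, a marker of dividing cells, was 183, 213 and 221 CPM in air, compared with 263, 228 and 236 CPM at 72 h. Lysosome genes gave 2 of 47 lower and 0 higher, near the share of all genes called lower, 3.77%. With the length trend removed they gave 3 higher and 0 lower, against 0.949% of all genes called higher. With both libraries also left out they gave 8 higher and 0 lower, against 4.45%. Circadian genes gave 1 of 19 lower, Cry1 at a log2 fold change of -0.68. The p53 targets gave 1 of 22 higher, Zmat3 at 0.29, against 1.71% of all genes called higher. Among macrophage transcription factors 0 of 29 were called by edgeR (1 higher and 3 lower at an unadjusted p under 0.05, 2 lower by DESeq2, 0 by voom). Jak2, the kinase of the GM-CSF receptor, was the single call among 28 CSF and TGF-beta signalling genes, at 69.9, 68.5 and 64.3 CPM in the air mice and 86.2, 84.8 and 86.2 CPM at 72 h (log2 fold change 0.34, SE 0.07, adjusted p = 0.0315). The share of all genes called higher was the same 1.71%. Without replicate 1 edgeR called 0 of the p53 targets and 0 of these 28 genes. DESeq2 then called 2 higher in each list and voom 0.

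**Figure D5:**
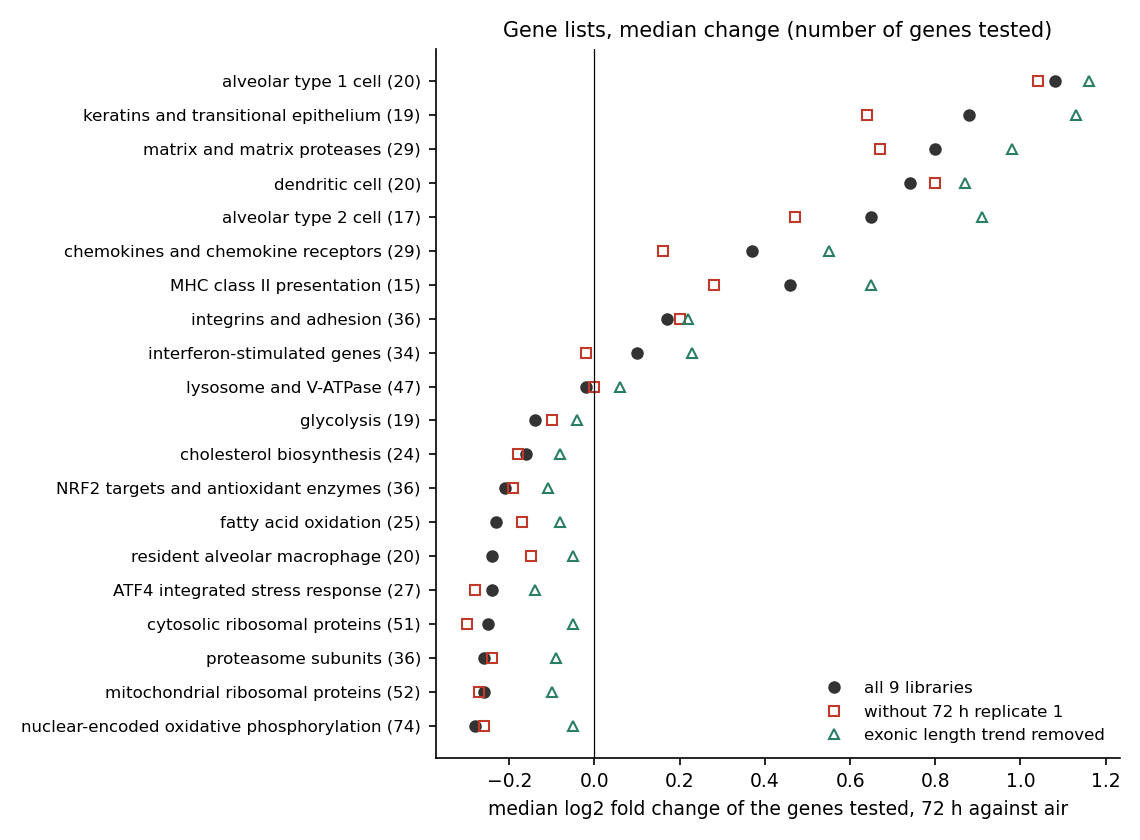
Median log2 fold change at 72 h against air (horizontal axis) of the tested genes in 20 lists, with all libraries (filled circles), without 72 h replicate 1 (open squares) and with the exonic length trend removed (open triangles). The lists of type 1 cells, keratins, matrix and dendritic cells stay at 0.64 or above in all 3, and those of oxidative phosphorylation, mitochondrial ribosomal proteins and proteasome move from -0.26 or below to between -0.10 and -0.05 when the length trend is removed.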

How the data were processed

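The members and gene lists were chosen with earlier results of these data known. The authors deposited estimated counts per gene, a single table with 80.5% whole values. The tools, per the submitters' processing notes, were Trimmomatic 0.39, FastQC, Salmon and DESeq2 on GRCm38.p6. Neither the annotation release nor the use of strand is given in the sources used here. Genes with near-identical or antisense partners are therefore uncertain. Symbols, coordinates and exonic lengths came from GENCODE M21, which matched 54107 of 54281 identifiers.

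Counts were rounded and analysed with edgeR 4.0.16 in R 4.3.3: filterByExpr, TMM scaling, 1 robust quasi-likelihood fit over 9 libraries, the contrast of 72 h minus air, and Benjamini-Hochberg adjustment over 15713 genes. The biological coefficient of variation (common) was 0.312. The SE is the absolute log2 fold change over the root of the F statistic. Fits that leave out libraries kept the same genes. With 3 mice against 3, an exact permutation test of a single gene cannot go below p = 0.1, two-sided. The fits were checked on simulated data.

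Genes were named by a rule: the 10 largest called changes in each direction at 5 CPM or more in the higher group, the same among genes also called without 72 h replicate 1 (6 were lower) and among those at 100 CPM or more (not all are printed), and up to 4 called members of each of 56 lists, 41 functional and 15 of cell types, or the 2 most abundant where none was called. Ager, Aqp5, Hopx, Pdpn, Ahnak, Cav1, Krt19, Cldn7, Epcam, Cdh1, Itgb6, Sftpc, Lama5, Dsp, Mal2, Sparc, Mmp14, Col3a1, Col4a3, Col4a5, Spp1, Fscn1, S100a9, Mpo, Ccr2, Cxcl2, Il1b, Eif4ebp1, Trib3, Phgdh, Psat1, Ddit3, Atf3, Chac1, Nupr1, Siglecf and Pparg were added after their values were seen. Alternatives were DESeq2 1.42.0, limma 3.58.1 voom, other scalings and filters, the replicate number as a block, only the 6 libraries compared, removal of abundant genes, and each library left out. Removal of trends on exonic length or GC (loess on genes averaging 10 CPM or more, span 0.5) was added after the data were seen.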

Additional observations from a re-analysis of the deposited data

Results flagged for a closer look

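The 30 genes with the largest called changes, with all libraries or also without 72 h replicate 1, were compared between 72 h and 24 h after ozone in the same edgeR fit. This difference between the exposure times was itself called for 21 of them, and not for 9, namely Acaa1b, Asns, Clu, Ear1, Gpd1, Krt79, Lrg1, Serpinb6b and Spag11b. It does not involve the air samples, but the genes were chosen by their difference from air at 72 h, which shares the 72 h libraries.

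Epithelial genes were higher at 72 h than at 24 h by log2 fold changes of 3.55 for Cldn18, 2.75 for Emp2, 2.74 for Gprc5a, 2.29 for Krt18 and 2.21 for Krt8. Ndnf differed by 2.41, Zmynd15 by 1.73, Npr1 by 1.33, Mmp25 by 1.33, Gnb4 by 1.25, Apol7d by 1.21 and Cxcr2 by 0.69.

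Of the 4 ATF4 pathway genes among the 30, 3 were lower at 72 h than at 24 h, with log2 fold changes of -0.37 for Atf4, -0.70 for Mthfd2 and -0.73 for Atf5, and Asns, at -0.51, was not called (adjusted p = 0.0616). The difference was -0.45 for Idh2, -0.32 for Nfu1, -0.42 for Rnf5, -0.66 for Fabp1 (Ear1 and Krt79, not called, differed by -0.15 and -0.11), -0.58 for Tpm3-rs7 and -1.42 for Nutf2. Tpm3-rs7 is a retrocopy-like relative of Tpm3, so its counts are uncertain.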

How the results depend on the processing

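All 860 genes kept their sign without 72 h replicate 1, which could hardly have been otherwise, since their groups did not overlap. The number called moved with most settings. Against 860 calls (268 higher, 592 lower), separate fits, whose calls are not all among the 860, gave 506 with DESeq2 size factors (282 lower), 299 with upper quartile scaling (107 lower), 270 with no filter (110 higher, 160 lower), 459 with a filter of 1 CPM in 3 libraries (250 lower) and 389 with the GC trend removed (128 lower). Removal of the length trend gave 171 (149 higher, 22 lower; 160 among the 860), and together with leaving out 72 h replicate 1 and 24 h replicate 2 it gave 699 higher and 102 lower. DESeq2 called 1936 (714 higher, 1222 lower), a fit to the 6 libraries of air and 72 h 1362 (643 higher), the same without 72 h replicate 1 641 higher and 330 lower, and leaving out both libraries 701 higher. Leaving out 1 library at a time gave 31 to 1617 calls, 26 to 811 higher and 2 to 806 lower. Against 59 calls without 72 h replicate 1, the filter of 1 CPM gave 20, DESeq2 991, voom 115, the fit to air and 72 h alone 971 and the further loss of 24 h replicate 2 1126. Of 46 lists with a median of at least 0.1 in size, 0 changed sign with DESeq2 size factors or upper quartile scaling and 3 (airway epithelium, G2 and mitosis, prostaglandin synthesis) with the length trend removed. Without 72 h replicate 1, 3 changed sign (alternative activation, erythroid, interferon-stimulated genes), and leaving out each air library changed 1 (prostaglandin synthesis, interferon-stimulated genes, and G2 and mitosis). The erythroid list also did in the fit to air and 72 h alone without that library, and resident macrophage markers did with the length trend removed and both libraries left out. Cst3, not called with all libraries, changed sign to 0.26 with the length trend removed and to 0.27 with both libraries also left out. Same-numbered mice of air and 72 h did not deviate together (correlations -0.16, 0.0991 and -0.0869). The fit with the replicate number as a block called 35 genes (31 higher, 4 lower), and without 72 h replicate 1 it called 0 by edgeR with 2725 at an unadjusted p under 0.05. Depth limits the scarcest genes: 144 of those called higher averaged under 1 CPM in air.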

Other observations

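A search for genes with at least 50 estimated counts in every library of some groups and 0 in every library of the others found none that set air or 24 h apart, and 3 that set 72 h apart. All 3 were processed pseudogenes, copies of spliced transcripts, for which reads are shared with near-identical parents. The sources used here do not state whether the 72 h libraries were quantified with the same set of transcripts as the others, and this was not tested. Gm2223 (chromosome X, 33505661 to 33507010, GRCm38) had 0 counts in all 6 libraries of air and 24 h and 205, 183 and 208 at 72 h. Rab11b-ps2 (chromosome 19, 7398424 to 7399077) had 0 in the same 6 libraries and 67, 127 and 123 at 72 h. Gm6158 (chromosome 14, 24069734 to 24070637) had counts of 327, 408 and 739 in air, of 387, 807 and 297 at 24 h, and of 0 in all 3 libraries at 72 h.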
